A study of Homo sapiens with 15 samples.

Results

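The ERK feedback genes are brakes and outputs that ERK signalling switches on in its own target cells, and 10 of them were followed here by name: the phosphatases DUSP4, DUSP5 and DUSP6, the Sprouty genes SPRY1, SPRY2 and SPRY4, the SPRED genes SPRED1 and SPRED2, and the transcription factors ETV4 and ETV5. All 10 were found among the 18322 genes of the table and all 10 were among the 17012 that were tested, where a gene had to reach 10 normalized reads (reads divided by a library's size factor) in 3 or more libraries. The 15 RNA libraries all came from A375, a melanoma cell line of human origin whose BRAF kinase carries an activating mutation. There were 5 groups of 3, which the series calls biological triplicates: Parental, the starting line; Resistant, a single clonal population of A375 that withstands PLX4720, an inhibitor of mutant BRAF; MYC T58A, parental cells that carry this more slowly degraded form of the transcription factor MYC; and resistant cells labelled shMYC1 or shMYC2, each a short hairpin directed at MYC. The labels give neither the drug exposure at harvest nor the promoter of the MYC T58A or hairpin constructs, and by the labels every resistant library descends from that clone.

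In cells with mutant BRAF, signal passes through MEK to ERK, which enters the nucleus and raises a set of early and delayed target genes. Several of these targets act backwards on the pathway: DUSP phosphatases remove the activating phosphates from ERK, while Sprouty and SPRED proteins restrain signalling upstream, around RAS and RAF. ETV4 and ETV5 belong to the PEA3 group of ETS transcription factors and carry the signal onward to further genes. The RNA level of these genes is widely read as a measure of ERK output in melanoma, although each gene also has other inputs.

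The labels were first checked against MYC. Mean MYC values, in normalized reads ± SD (n = 3 here and throughout), were 302.5 ± 28.1 for Resistant, 422.7 ± 11.9 for Parental, 486 ± 29.5 for the shMYC1 label, 3511 ± 94.4 for MYC T58A and 7817 ± 260 for the shMYC2 label. Both hairpin labels thus had more MYC RNA than Resistant (log2 difference 0.68 and 4.69, adjusted p = 4.43e-08 and 1.74e-20), which goes against the labels, and these groups are called the libraries labelled shMYC1 and shMYC2. Across all genes the libraries labelled shMYC2 correlated with every other group at r = 0.828 to 0.848, whereas Parental and the libraries labelled shMYC1 correlated at 0.973 to 0.975. With Resistant, the libraries labelled shMYC1 correlated at 0.943 to 0.948 and Parental at 0.954 to 0.956. SOX10, a transcription factor of the pigment cell lineage, was at 5282 ± 149 in Parental and 11890 ± 1138 under the shMYC1 label, but at 7.5 ± 2.52, 9.14 ± 1.99 and 19.5 ± 3.74 in Resistant, MYC T58A and the shMYC2 label. The 6 of 8 pigment cell markers in the table summed to 6801 to 7102 in Parental, 3549 to 3988 in Resistant, 13098 to 15464 under shMYC1, 190.6 to 244.5 under shMYC2 and 3579 to 3974 in MYC T58A. These markers did not move together: MITF was at 1509 ± 1.76 in Parental, 3748 ± 233 in Resistant and 3592 ± 194 in MYC T58A. By the test used below, 1 of the 6 was higher and 2 were lower in Resistant than in Parental (51.6% of all genes differed). In MYC T58A 3 were higher and 3 lower than in Parental (63.8% of all genes differed). Fibroblast markers (3 of 3 in the table) summed to 804.8 to 827.3 in Resistant and 126.2 to 340 elsewhere, keratinocyte or epithelial markers (3 of 3) to 417.6 to 495.7 under shMYC1 and 4.17 to 149.2 elsewhere, and endothelial markers (2 of 3) to at most 25.5 in any library. Under shMYC1 the keratinocyte or epithelial sum came mostly from KRT14 (440.6 ± 39.3, beside 98 ± 4.57 in Parental). KRT5 went the other way (7.12 ± 1.41 under shMYC1, beside 33.8 ± 5.92 in Parental). EPCAM was at 4.89 ± 2.67 under shMYC1 and 9.32 ± 2.11 in Parental. The part of these differences in the results below was not tested. In bulk RNA, fewer expressing cells and less RNA per cell cannot be told apart. Libraries held 24222192 to 30399644 reads in genes.

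Resistant cells had less RNA of 9 of the 10 genes than parental cells and more of none. Values fell 5.84-fold for SPRY2, 5.68-fold for DUSP6, 3.51-fold for DUSP4, 2.89-fold for SPRY4 and 2.49-fold for ETV4, and between 1.14-fold and 1.8-fold for DUSP5, SPRED2, SPRED1 and ETV5. Of all tested genes 24.4% were called lower and 51.6% were called in either direction in this comparison (limma, adjusted p under 0.05). The median log2 difference was -1.08 over the 10 genes and 0.01 over all genes. A call with a difference of at least 1 on the log2 scale was made for 5 of the 10, all lower (DUSP4, DUSP6, SPRY2, SPRY4 and ETV4), against 6.19% of all genes called lower by that much. For each of the 10 genes every Resistant library was below every Parental library; Parental and Resistant were separated, in either direction, for 63.5% of all genes.

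**Figure D1:**
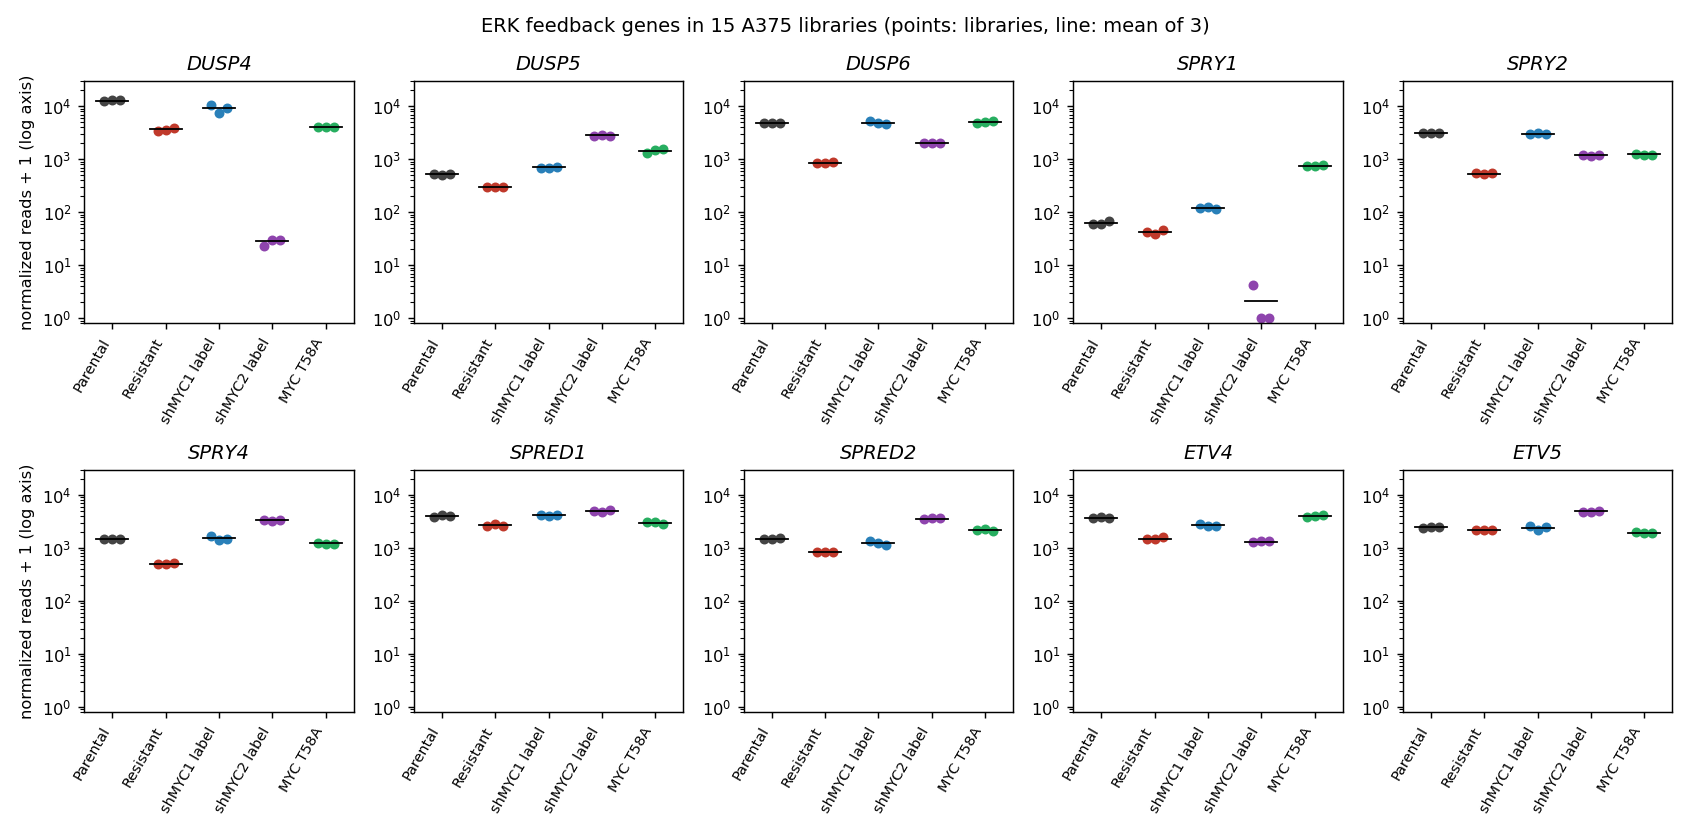
Normalized reads plus 1 (log axis) of the 10 ERK feedback genes in each of the 15 libraries, with a panel for each gene; points are libraries and the line is the mean of 3. Resistant has the lowest mean in 6 panels, and the libraries labelled shMYC2 lie far below the rest for DUSP4 (mean 27.2) and SPRY1 (mean 1.08).

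Among the phosphatases, DUSP6, which acts on ERK in the cytoplasm, was lowest in Resistant, and its other differences were between shMYC2 and the remaining groups. Its normalized reads were 4777, 4887 and 4931 in the Parental libraries and 835, 838 and 899 in the Resistant libraries. MYC T58A gave 4813, 4991 and 5207, the shMYC1 label 5209, 4837 and 4612, and the shMYC2 label 1990, 2026 and 2034. Resistant was thus the lowest group, shMYC2 stood between, and the other groups overlapped with one another. On the log2 scale the change was -2.5 (SE 0.0494, adjusted p = 1.16e-16) from Parental to Resistant. The difference from Resistant was 2.51 in the libraries labelled shMYC1 and 1.23 in those labelled shMYC2 (adjusted p = 3.02e-17 and 7.39e-14). MYC T58A differed from Parental by 0.04 (SE 0.0494, adjusted p = 0.501).

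DUSP4, a nuclear phosphatase of ERK, ranged more widely than any other of the 10 genes between groups that all had reads in every library. It was at 12566, 12978 and 12944 normalized reads in Parental, 3456, 3562 and 3938 in Resistant, and 4013, 4112 and 4084 in MYC T58A. Libraries labelled shMYC1 were at 10477, 7580 and 9483, and those labelled shMYC2 at 22.6, 29.2 and 29.7. Parental was the highest group and shMYC2 by far the lowest, 134-fold under Resistant and 472-fold under Parental (log2 difference from Resistant -7.03, SE 0.107, adjusted p = 1.96e-17). The spread was widest under shMYC1 (SD 1472), where library 2 was lowest. That library also stood apart over all genes: the chi-square per gene against its fellows was 29.1 and 19.8, and no other pair within a group exceeded 8.05. MYC T58A lay 1.66 below Parental (3.15-fold, adjusted p = 2.92e-09) and 0.16 above Resistant, a difference that was not called (adjusted p = 0.204) although their libraries did not overlap.

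DUSP5, the other nuclear phosphatase of ERK, was lowest in Resistant, as DUSP6 was, but highest under the shMYC2 label. Its normalized reads were 539, 513 and 529 in Parental, 298, 295 and 305 in Resistant, 695, 695 and 725 under shMYC1, 2784, 2897 and 2771 under shMYC2, and 1334, 1496 and 1536 in MYC T58A. No 2 groups overlapped, and the order from low to high was Resistant, Parental, shMYC1, MYC T58A and shMYC2. The log2 difference was -0.81 (SE 0.0554, adjusted p = 1.03e-09) from Parental to Resistant, 1.46 (2.76-fold, adjusted p = 2.12e-13) from Parental to MYC T58A, and 3.23 (9.41-fold, adjusted p = 4.1e-19) from Resistant to shMYC2. DUSP4 and DUSP5 therefore lay at opposite ends in the libraries labelled shMYC2.

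Promoter windows from RefSeq (GRCh38.p14, from 250 bases before to 50 bases after a gene's start) were at hand for 6 of the 10 genes. They are shown for the 3 genes that fell most among those with a window, DUSP6, SPRY2 and SPRY4, and for SPRY1, whose levels went another way. Of the 3 SPRY2 windows the farthest upstream is shown, and of the 2 SPRY1 windows the one with a match. The windows were searched on both strands for 4 motifs: the octamers TGAATGAA, TGAATGGA, TCAATGAA and TCAATGGA bound by the repressor CIC, which ERK signalling relieves; CCGGAAG for ETS factors; TGACTCA for AP-1; and CACGTG, the E-box bound by MYC. Capitals mark the matches, and each sequence reads 5′ to 3′ on the strand of its gene.
DUSP6, chr12:89352452-89352751, minus strand: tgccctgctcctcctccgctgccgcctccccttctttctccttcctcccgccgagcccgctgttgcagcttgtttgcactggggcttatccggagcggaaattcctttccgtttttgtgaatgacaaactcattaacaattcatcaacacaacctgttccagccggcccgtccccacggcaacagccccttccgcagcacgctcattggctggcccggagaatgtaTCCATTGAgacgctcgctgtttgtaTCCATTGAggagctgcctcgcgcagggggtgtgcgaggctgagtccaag
SPRY2, chr13:80341077-80341376, minus strand: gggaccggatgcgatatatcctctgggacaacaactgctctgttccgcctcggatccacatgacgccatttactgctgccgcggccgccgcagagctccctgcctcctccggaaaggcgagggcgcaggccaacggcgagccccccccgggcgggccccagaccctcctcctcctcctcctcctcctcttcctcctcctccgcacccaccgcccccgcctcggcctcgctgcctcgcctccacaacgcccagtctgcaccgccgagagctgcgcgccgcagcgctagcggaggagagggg
SPRY4, chr5:142324198-142324497, minus strand: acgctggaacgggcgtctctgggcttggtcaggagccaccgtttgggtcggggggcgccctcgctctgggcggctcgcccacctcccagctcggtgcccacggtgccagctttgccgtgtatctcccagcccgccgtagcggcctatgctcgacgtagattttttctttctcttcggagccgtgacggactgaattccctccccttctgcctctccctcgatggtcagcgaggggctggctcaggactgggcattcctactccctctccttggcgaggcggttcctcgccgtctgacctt
SPRY1, chr4:123398136-123398435, plus strand: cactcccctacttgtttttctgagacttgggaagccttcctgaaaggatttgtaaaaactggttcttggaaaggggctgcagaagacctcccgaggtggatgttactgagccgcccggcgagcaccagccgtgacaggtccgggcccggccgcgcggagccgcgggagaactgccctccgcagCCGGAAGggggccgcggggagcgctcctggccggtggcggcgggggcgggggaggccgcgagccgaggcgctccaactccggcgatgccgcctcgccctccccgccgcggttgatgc

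The DUSP6 window held 2 matches to a CIC octamer, both TCAATGGA on the opposite strand and so written TCCATTGA, beginning 24 bases before and 1 base after the start. A CIC octamer was found in 3.77% of the 35116 RefSeq windows of this length. The SPRY1 window shown held the ETS letters 67 bases before its start, as did 10.3% of all windows at some position, and the second SPRY1 window held none of the motifs. A second SPRED2 window, not shown, held TGACTCA beginning 6 bases before its start (4.95% of all windows). None of the motifs was found in the windows of SPRY2, SPRY4 and SPRED1, and CACGTG, present in 7.26% of all windows, was in none of the 10 windows of these genes. A match of letters is a description of the sequence and no evidence of binding.

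SPRY2, a Sprouty adaptor that restrains receptor signalling to RAS, was also lowest in Resistant. Its values were 3108, 3180 and 3132 normalized reads in Parental and 540.0, 533 and 539.9 in Resistant. They were 2977, 3181 and 3021 under shMYC1, 1199, 1138 and 1202 under shMYC2, and 1234, 1231 and 1230 in MYC T58A. Parental and shMYC1 formed the high level, shMYC2 and MYC T58A an intermediate level, and Resistant the low level. The log2 difference from Parental was -2.54 in Resistant (SE 0.0429, adjusted p = 2.05e-17) and -1.35 in MYC T58A (2.55-fold, adjusted p = 1.94e-14). In MYC T58A, therefore, SPRY2 fell while DUSP6 did not pass the test. The neighbouring levels did not differ by the test: the adjusted p was 0.525 between shMYC1 and Parental and 0.189 between shMYC2 and MYC T58A, whose libraries did not overlap.

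SPRY4, another Sprouty protein, was at 1455, 1460 and 1483 in Parental and 503, 498 and 521 in Resistant. It was at 1682, 1409 and 1485 under shMYC1, 3314, 3290 and 3414 under shMYC2, and 1259, 1205 and 1195 in MYC T58A. Resistant was lowest, shMYC2 highest, and shMYC1 overlapped with Parental (adjusted p = 0.494). The changes were -1.53 from Parental to Resistant (adjusted p = 2.66e-13), -0.27 from Parental to MYC T58A (1.2-fold lower, adjusted p = 0.000467) and 2.72 from Resistant to shMYC2 (6.58-fold, adjusted p = 5.26e-18).

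SPRY1, the third Sprouty gene, did not share the pattern of SPRY2 and SPRY4. It was at 59.2, 58.4 and 67.8 normalized reads in Parental, 41.6, 38.5 and 44.6 in Resistant, 119.9, 127 and 113.8 under shMYC1, 3.23, 0 and 0 under shMYC2, and 740.4, 736.4 and 788.9 in MYC T58A. MYC T58A was the highest group by a wide margin, 12.2-fold above Parental (log2 difference 3.59, adjusted p = 1.34e-06). Only 3 reads were counted under shMYC2, all in library 1, against 129 in Resistant, which gives a ratio of 39.8 with an exact 95% Poisson interval of 13.3 to 195 for counting error alone. The difference of Resistant from Parental, -0.56 (SE 0.39), missed the threshold (adjusted p = 0.253), as did that of shMYC1 from Parental, 0.95 (adjusted p = 0.0686), although neither pair of groups overlapped. Both depend on the spread that the fit takes from the shMYC2 libraries: without those libraries the adjusted p was 0.000267 and 1.88e-06. Without shMYC2 library 1 alone they were 0.00143 and 1.68e-05.

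The SPRED proteins, membrane-bound relatives of Sprouty that bring neurofibromin to RAS, differed in how far they ranged. SPRED1 ranged from 2587 to 2812 in Resistant, 2831 to 3095 in MYC T58A, 3842 to 4152 in Parental, 4069 to 4284 under shMYC1 and 4847 to 5215 under shMYC2. SPRED1 thus spanned 1.89-fold between the lowest and the highest group mean, the smallest span of the 10 genes. SPRED2 ranged from 823 to 845.2 in Resistant, 1160 to 1377 under shMYC1, 1468 to 1546 in Parental, 2133 to 2274 in MYC T58A and 3482 to 3632 under shMYC2. Both genes were lowest in Resistant and highest under shMYC2, but MYC T58A lay below Parental for SPRED1 (-0.42, adjusted p = 8.34e-07) and above it for SPRED2 (0.55, adjusted p = 9.32e-08).

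The transcription factors differed from each other in the same groups. ETV4 was at 3682, 3820 and 3751 in Parental, 1482, 1453 and 1588 in Resistant, 2832, 2586 and 2629 under shMYC1, 1270, 1335 and 1331 under shMYC2, and 3878, 3964 and 4161 in MYC T58A. It fell by 1.32 on the log2 scale in Resistant (adjusted p = 3.38e-13), rose by 0.83 from there under shMYC1 (1.78-fold, adjusted p = 9.88e-11), and lay 0.2 below Resistant under shMYC2 (1.15-fold, adjusted p = 0.00118). ETV5 ranged from 2339 to 2542 in Parental, 2151 to 2198 in Resistant, 2195 to 2578 under shMYC1, 1884 to 1979 in MYC T58A and 4837 to 5012 under shMYC2. Its change in Resistant was the smallest of the calls in that comparison (-0.18, SE 0.0535, adjusted p = 0.00827), and shMYC2 stood alone at the high end, 2.26-fold above Resistant. In GENCODE v29, ETV4 overlaps DHX8 on the opposite strand and ETV5 overlaps DGKG on its own strand. The strand setting of the read counting is not given in the sources used here, and the highest group mean was 4629 for DHX8 and 997.2 for DGKG.

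The libraries labelled shMYC1 were then compared with Resistant. All 10 genes were higher, by 5.7-fold for DUSP6, 5.69-fold for SPRY2, 3.01-fold for SPRY4, 2.89-fold for SPRY1, 2.51-fold for DUSP4, 2.36-fold for DUSP5, and 1.11-fold to 1.78-fold for ETV4, SPRED1, SPRED2 and ETV5. In this comparison 27% of all genes were called higher and 57.1% in either direction, and the median log2 difference was 1.28 over the 10 genes and -0.03 over all genes. ETV5 was the weakest call (0.15, adjusted p = 0.0238), with overlapping libraries; the adjusted p was 0.0572 to 0.124 when either of Resistant libraries 2 and 3 or of shMYC1 libraries 1 and 3 was left out. MYC RNA was 1.61-fold higher in these libraries than in Resistant.

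Set directly against Parental, the libraries labelled shMYC1 differed in 4 of the 10 genes, with DUSP5 higher (1.34-fold) and DUSP4 (1.4-fold), ETV4 (1.4-fold) and SPRED2 (1.19-fold) lower, where 39.6% of all genes were called. SPRY1 was 0.95 higher on the log2 scale without overlap but was not called (adjusted p = 0.0686). Without the shMYC2 libraries it was called (adjusted p = 1.88e-06). The estimates for the remaining genes, DUSP6, SPRY2, SPRY4, SPRED1 and ETV5, lay between -0.04 and 0.07 on the log2 scale, with standard errors of 0.0429 to 0.056. This comparison shares its libraries with both comparisons above, so the fall in Resistant and the rise under shMYC1 are not separate observations of the Resistant level.

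The libraries labelled shMYC2 divided the genes. Against Resistant, 7 were higher and 3 lower, and all 10 were called, where 36.2% of all genes were called higher, 43% lower and 79.2% in either direction. The genes called higher were DUSP5 (9.41-fold), SPRY4 (6.58-fold), SPRED2 (4.29-fold), DUSP6 (2.35-fold), ETV5 (2.26-fold), SPRY2 (2.19-fold) and SPRED1 (1.89-fold), and those called lower were DUSP4, SPRY1 and ETV4. The median size of the log2 difference, without its sign, was 1.67 over the 10 genes and 0.72 over all genes. Genes without a single read numbered 1636 to 1694 in these libraries and 296 to 665 in the remaining 12. The 2 hairpin labels differed from each other in all 10 genes, where 78.6% of all genes were called. The scaling matters here: the median of all genes was -0.08 as deposited, 0.15 after quantile normalization and -0.22 after scaling to the total count, while the sign of each of the 10 differences was the same under all 3.

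**Figure D2:**
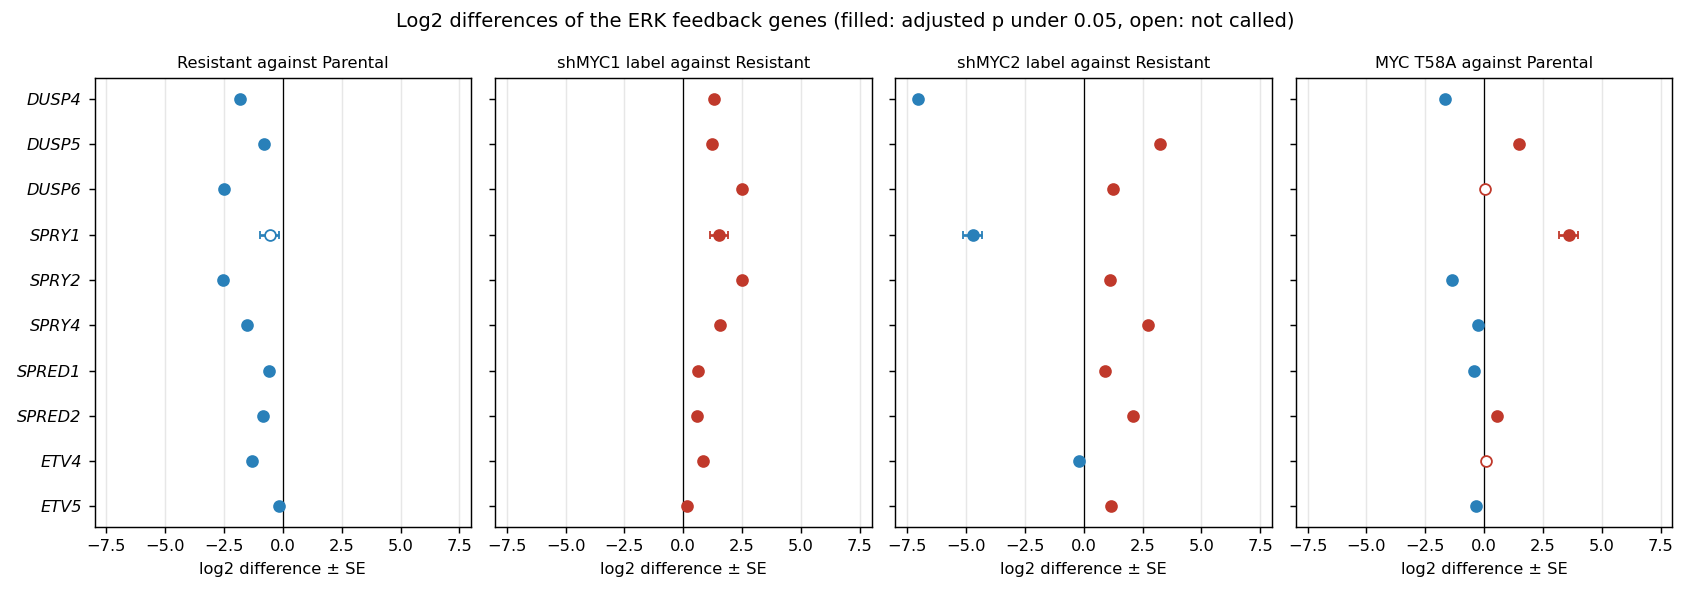
Log2 difference with its standard error for the 10 ERK feedback genes in 4 comparisons; filled points were called at an adjusted p under 0.05 and open points were not. All points lie below 0 in Resistant against Parental and above 0 for the shMYC1 label, while those of the shMYC2 label run from -7.03 (DUSP4) to 3.23 (DUSP5).

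The MYC T58A libraries differed from Parental in 8 of the 10 genes without a common direction: DUSP5, SPRY1 and SPRED2 were higher, and DUSP4, SPRY2, SPRY4, SPRED1 and ETV5 were lower. In this comparison 63.8% of all genes were called, 30.1% higher and 33.7% lower. The median log2 difference was -0.11 over the 10 genes and -0.02 over all genes. The 2 genes not called were DUSP6 and ETV4, with ETV4 0.09 higher (adjusted p = 0.109) and no overlap between its libraries. A call with a difference of at least 1 on the log2 scale was made for 4 of the 10, against 20% of all genes in either direction. DUSP4 and SPRY2 were lower by that much, and DUSP5 and SPRY1 higher.

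The difference between MYC T58A and Resistant was tested directly, since both were set against the same Parental libraries. Of all genes 31.8% were called higher in MYC T58A, 36% lower and 67.8% in either direction. Among the 10 genes MYC T58A was higher for 8 and lower for ETV5 (-0.17, adjusted p = 0.0089). The 3 largest differences were 18.2-fold for SPRY1, 5.84-fold for DUSP6 and 4.86-fold for DUSP5, and 7 of the 8 were higher by at least 1 on the log2 scale, against 8.39% of all genes. SPRED1 was the exception (0.16, adjusted p = 0.00813). DUSP4, at 4070 ± 50.9 in MYC T58A and 3652 ± 254 in Resistant, was the gene for which no difference was called (0.16, adjusted p = 0.204). It was called when only those 6 libraries were fitted (adjusted p = 0.0146).

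By the order of the 5 group means, Resistant was the lowest group for 6 genes (DUSP5, DUSP6, SPRY2, SPRY4, SPRED1 and SPRED2), shMYC2 for 3 (DUSP4, SPRY1 and ETV4) and MYC T58A for ETV5. The highest group was shMYC2 for 5 genes (DUSP5, SPRY4, SPRED1, SPRED2 and ETV5), MYC T58A for 3 (DUSP6, SPRY1 and ETV4) and Parental for 2 (DUSP4 and SPRY2). The position of MYC T58A at the top of DUSP6 is not separated from its neighbours, since the adjusted p was 0.553 against shMYC1 and the libraries overlapped. The same holds for Parental above shMYC1 in SPRY2.

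The likeness of each gene's profile to others was measured as the root mean square difference of log2 values over the 15 libraries, after the gene's mean was taken off, among 12493 genes with a mean of at least 50. DUSP6 was most like ANKH (0.224) and NRG2 (0.244), and SPRY2 was its nearest fellow member (0.538). ANKH, a membrane protein that exports pyrophosphate, averaged 2632 in Parental, 565 in Resistant, 2754 under shMYC1, 1579 under shMYC2 and 3855 in MYC T58A. SPRY2 was most like JAG1 (0.362), a Notch ligand, and PREX1 (0.365). SPRY4 was most like SLC20A1 (0.206), a phosphate transporter, and GRAMD1C (0.214), and DUSP5 most like ANTXR2 (0.222), a receptor for anthrax toxin, and EPN2 (0.29). DUSP4 was nearest to SLC14A1 (0.312) and to the collagen gene COL4A2 (0.325), which averaged 22031 in Parental and 47.4 under shMYC2. SPRY1 was nearest to DUSP2 (0.652), another nuclear phosphatase, which averaged 241.5 in MYC T58A, 58.4 in Parental and 0.359 under shMYC2, and to CITED4 (0.722). SPRED1 was nearest to FNIP1 (0.093) and TPX2 (0.102), and SPRED2 to LRRC20 (0.137) and CTD-2201E18.3 (0.16). ETV4 was nearest to MIF4GD (0.186) and the keratin gene KRT18 (0.193), and ETV5 to TMEM164 (0.07) and PCYT1A (0.075). Genes nearer than the nearest fellow member numbered 1985 for ETV4, 1305 for SPRED1, 1009 for ETV5, 861 for DUSP4, 673 for SPRY1, 459 for SPRED2, 62 for SPRY4, 33 for SPRY2, 29 for DUSP5 and 16 for DUSP6. The 15 libraries fall into 5 groups, so these values describe 5 levels and not 15 independent points.

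Each gene was also set beside the median of its 50 nearest tested genes in the gene order of GENCODE v29, a description chosen after the values were seen. In Resistant against Parental the neighbours of SPRY4 had a median of -0.56, beside -1.53 for SPRY4, and those of SPRED2 -0.32, beside -0.85 for SPRED2. The neighbours of the other 8 genes had medians of -0.1 to 0.13, DUSP6 (-2.5 beside 0.1) and SPRY2 (-2.54 beside -0.1) included. In the libraries labelled shMYC1 the same neighbourhoods lay above Resistant, at 0.49 around SPRY4 and 0.4 around SPRED2, while the other 8 medians were -0.25 (around DUSP6, which itself was 2.51 higher) to -0.02. Under shMYC2 the medians around the 10 genes ran from -0.53 to 0.7 against Resistant. There the neighbours lay on the gene's side for ETV5 (0.7, beside 1.18), SPRED2 (0.35, beside 2.1), DUSP4, DUSP6, SPRY1 and SPRY2, and on the opposite side for SPRY4 (-0.53, beside 2.72), DUSP5 (-0.34, beside 3.23), SPRED1 (-0.26, beside 0.92) and ETV4 (0.4, beside -0.2). The copy number of these regions was not tested.

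**Figure D3:**
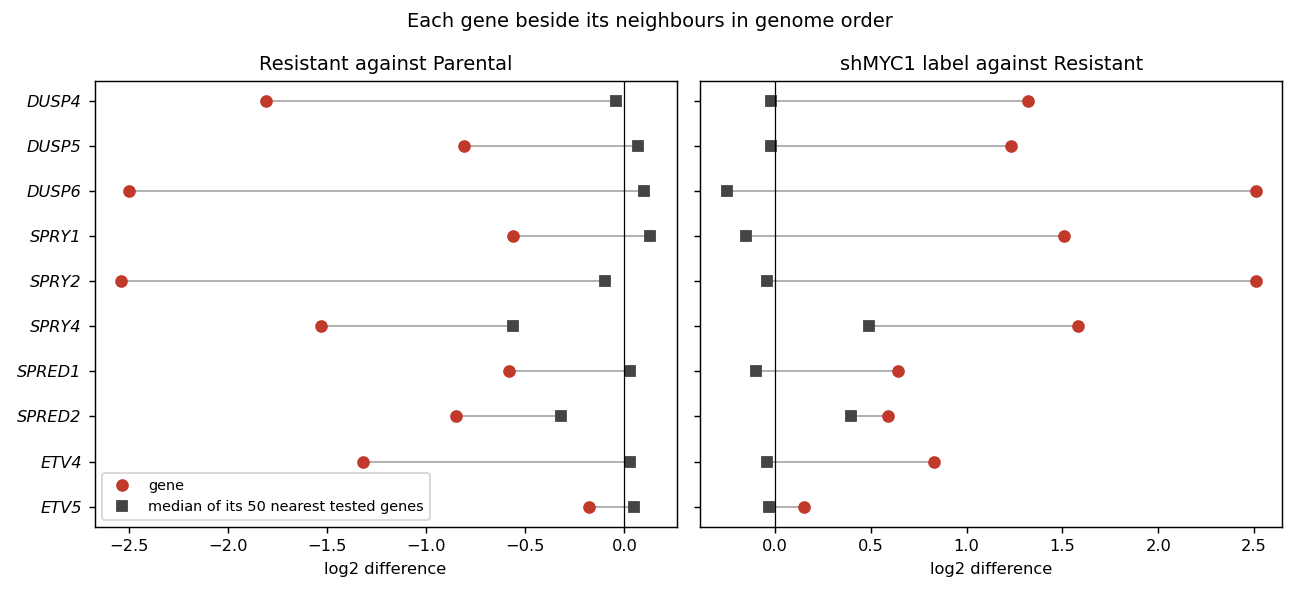
Log2 difference of each of the 10 genes (circles) and the median of its 50 nearest tested genes (squares) in Resistant against Parental and in the shMYC1 label against Resistant. The squares farthest from 0 are those around SPRY4 (-0.56 and 0.49) and SPRED2 (-0.32 and 0.4), on the side of the gene's own difference, while that around DUSP6 (-0.25) in the second panel lies on the opposite side.

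The other genes of the pathway were counted from lists. Among 13 other ERK output genes, Resistant was lower than Parental for 8 and higher for 2, where 24.4% of all genes were called lower. The shMYC1 label was higher than Resistant for 11 and lower for 2, where 27% of all genes were called higher. EGR1, an immediate early transcription factor, was 18-fold lower and then 27.2-fold higher, the ephrin receptor EPHA4 9.73-fold lower and then 7.92-fold higher, and FOS 4.94-fold lower and then 3.87-fold higher. HMGA2, a chromatin protein, and IER3 went the other way in both comparisons, by 1.14-fold and 1.32-fold higher in Resistant. In MYC T58A 10 of the 13 were lower than in Parental (33.7% of all genes), among them EPHA4 (11.3-fold), HMGA2 (5.36-fold) and PHLDA1 (2.6-fold), while EGR1 was 1.93-fold higher. Under shMYC2 7 were higher and 4 lower than in Resistant (36.2% and 43% of all genes), with EGR1 6.81-fold higher and the cytokine gene LIF 67.7-fold lower.

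Of the 7 other MAP kinase phosphatases, 3 rose and 2 fell in Resistant, where 51.6% of all genes were called. DUSP8, which acts on the stress kinases JNK and p38, averaged 2.41 in Parental and 66.7 in Resistant (27.7-fold), and DUSP16, which acts on JNK, was 2.98-fold higher. Both were lower under shMYC1 than in Resistant (5.66-fold and 4.14-fold). DUSP1 was 1.55-fold higher in Resistant than in Parental and 1.9-fold lower under shMYC1 than in Resistant. DUSP9 and DUSP7, which act on ERK, were 1.86-fold and 1.43-fold lower in Resistant, while DUSP2 was not called (adjusted p = 0.189). In MYC T58A 5 of the 7 were higher than in Parental (30.1% of all genes) and DUSP10 was 9.4-fold lower. Among the 3 relatives of the Sprouty, SPRED and ETV members, SPRY3 was 6.03-fold higher in Resistant, ETV1 1.89-fold lower, and SPRED3 was not called in any of the 4 comparisons of a group with its parent population.

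**Figure D4:**
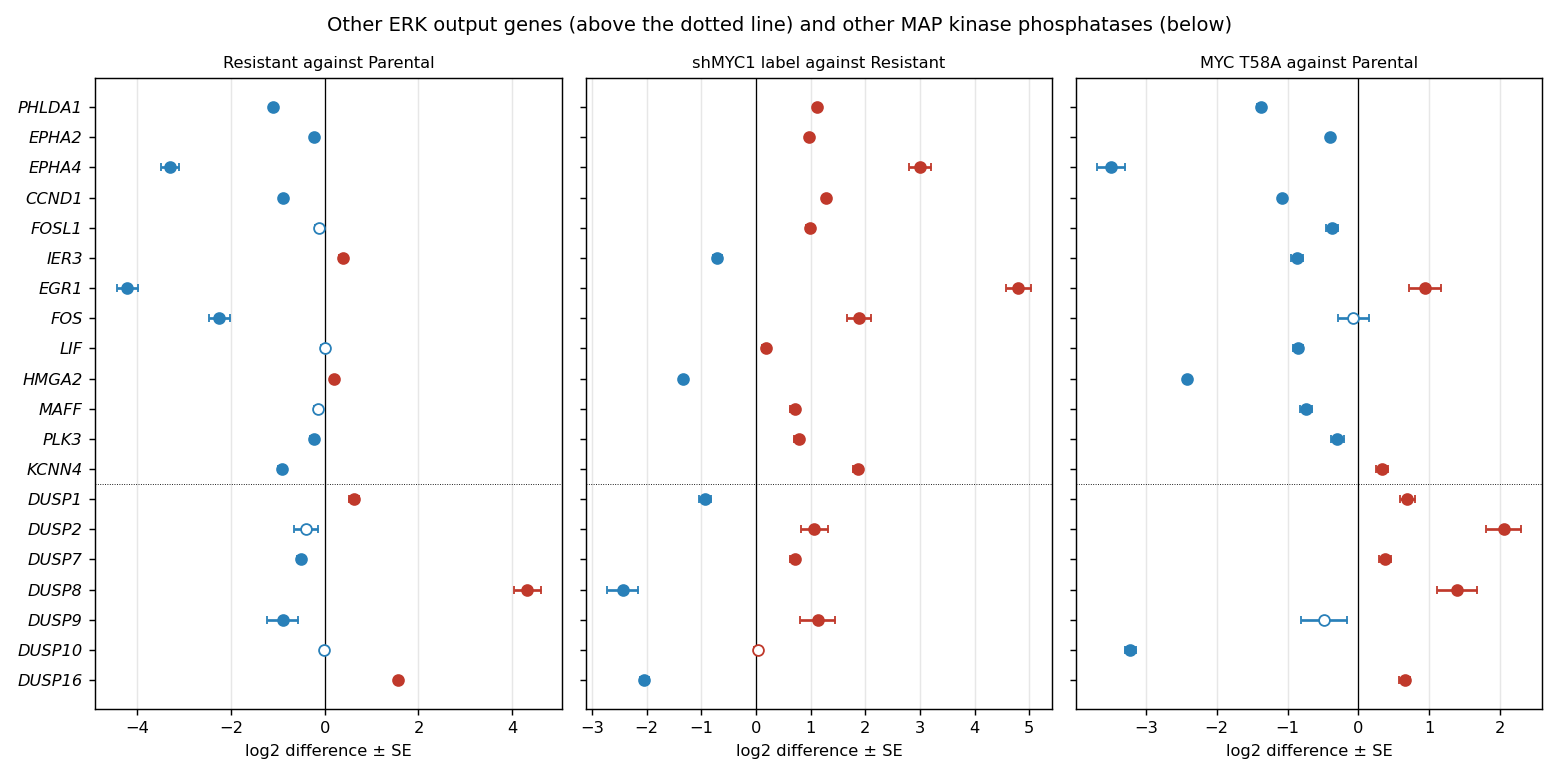
Log2 difference with its standard error for 13 other ERK output genes (above the dotted line) and 7 other MAP kinase phosphatases (below it) in 3 comparisons; filled points were called at an adjusted p under 0.05. EGR1 runs from -4.21 in Resistant to 4.8 under the shMYC1 label, and DUSP8 from 4.32 to -2.44.

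Of the 10 genes that encode RAS, RAF, MEK and ERK themselves, 2 rose and 2 fell in Resistant, where 51.6% of all genes were called, the largest difference being in MAPK3, which encodes ERK1 (1.53-fold lower). In MYC T58A 6 were higher and 2 lower (63.8% of all genes called), with BRAF 1.37-fold higher. Under shMYC1 5 were higher and 1 lower than in Resistant (57.1% of all genes called), and the lower gene was NRAS (3.21-fold). Of 9 other brakes on receptors and RAS, 3 were higher and 3 lower in Resistant (51.6% of all genes called), with LRIG1, which promotes receptor degradation, 5.32-fold higher, and the RAS GTPase activator DAB2IP 2.87-fold and the EGFR inhibitor ERRFI1 2.16-fold lower. Of 9 transcription factors at ERK target genes, 5 were higher and 1 lower in that comparison, where 27.2% of all genes were called higher and 24.4% lower. Means in Parental and Resistant were 4395 and 7379 for ELK4, 677 and 1114 for ETS2, and 5824 and 8076 for ETS1. For ELK3 they were 5225 and 3444. CIC, the repressor whose octamer stands in the DUSP6 window, averaged 2150 in Parental and 2308 in Resistant (log2 difference 0.1, adjusted p = 0.454) and was 1.32-fold lower in MYC T58A.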

How the data were processed

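The deposited table gives, for each gene symbol and library, a normalized signal, which is the authors' read count divided by a size factor. This was read from the values: in each column they were whole multiples of a step of 0.881 to 1.08, within a tolerance of 0.01 (100% of values). Trim Galore, cutadapt, STAR, HTSeq and DESeq2 are named, per the submitters' processing notes. No version is named. Genome build, gene models and strand setting were not given in the sources used here.

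Here, log2(value + 1) was fitted with limma 3.58.1 (trend, robust) in R 4.3.3, with a mean for each group over all 15 libraries. The 17012 genes that reached 10 in 3 or more libraries were kept, and 1310 were not. Two-sided p-values were adjusted across all of these genes (Benjamini-Hochberg) and called under 0.05. They rest on the spread between the 3 libraries of a group, pooled over all 5 groups, and so also on groups outside a comparison. They measure no variation between independent resistant clones. On this scale, low genes appear to change less than they do. A fold is the ratio of group means. The script was tested on simulated data.

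The members and lists were chosen with earlier results of these data known. Named are all 10 members, MYC, up to 3 called genes in each direction of a list, the 2 most alike genes and the markers. CIC, DUSP7, DHX8, DGKG, SPRED3 and the likeness levels were picked after their values were seen. MLANA, TYR, PTPRC, CD3E and PECAM1 are not analysed here. Library numbers follow the columns of the deposited table. Alternatives were other scalings, filters, pseudocounts and thresholds, fits of fewer libraries, and edgeR 4.0.16 and DESeq2 1.42.0 on recovered reads. Those 2 tests left out MYC T58A library 1, whose step was too near 1 for its reads to be recovered by the rule used.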

Additional observations from a re-analysis of the deposited data

Results flagged for a closer look

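The libraries labelled shMYC1 and shMYC2 were each compared with the same Resistant libraries, and the difference between the labels was tested directly (limma). It passed the threshold for all 10 ERK feedback genes, and 78.6% of all tested genes passed it too. The log2 difference of shMYC2 from shMYC1 was -8.35 for DUSP4, -6.23 for SPRY1, -1.37 for SPRY2, -1.27 for DUSP6 and -1.03 for ETV4. It was 2 for DUSP5, 1.51 for SPRED2, 1.13 for SPRY4, 1.03 for ETV5 and 0.27 for SPRED1. For DUSP4, SPRY1 and ETV4 the labels lay on opposite sides of Resistant, and for the other 7 on the same side. Adjusted p-values ran from 2.78e-18 (DUSP4) to 6.69e-05 (SPRED1).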

How the results depend on the processing

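No difference of the 10 genes changed sign as a called value under any alternative. When limma tested against a minimum log2 change of 0.5, the number of the 10 genes called fell from 8 to 4 for MYC T58A against Parental and from 4 to 0 for the shMYC1 label against Parental. It fell from 9 to 7 for Resistant against Parental and for MYC T58A against Resistant. For shMYC1 against Resistant it fell from 10 to 7. For shMYC2 against Resistant and between the labels it fell from 10 to 9. Of all genes the same setting called 14.9% for Resistant, 23.4% for MYC T58A and 6.9% for shMYC1 against Parental. Against Resistant it called 18.8% for shMYC1, 48.2% for shMYC2 and 29.1% for MYC T58A, and between the labels 46.9%. Leaving out each library in turn gave 9 to 10 calls for Resistant against Parental, 8 for MYC T58A against Parental, 9 to 10 for shMYC1 against Resistant, 10 for shMYC2 against Resistant, 4 to 5 for shMYC1 against Parental, 9 for MYC T58A against Resistant and 10 between the labels. The share of all genes called, in this order, was 46.2% to 55%, 59.2% to 66.3%, 52.5% to 57.3% and 76.7% to 80.8%. For the last 3 it was 32.7% to 39.9%, 63.8% to 70% and 76% to 78.9%. edgeR and DESeq2 each called 10, 8, 10, 10, 5, 9 and 10 in the same order. Of its 17451 genes edgeR called 53%, 60.7%, 58.2%, 78.3%, 40.5%, 65.5% and 77.5%. Of its 18322 genes DESeq2 called 47.5%, 54.6%, 52.8%, 73.9%, 35.2%, 59.2% and 73%. SPRY1 was the added call in Resistant against Parental with both tools (adjusted p = 0.00723 and 0.00866). ETV4 in MYC T58A against Parental was called after total-count scaling (0.0299) and when those libraries were fitted alone (0.037), and DUSP4 in MYC T58A against Resistant likewise when fitted alone (0.0146). ETV5 under shMYC1 against Resistant was lost after quantile normalization (0.069) and total-count scaling (0.193). SPRY1 in the same comparison was lost with a pseudocount of 0.1 (0.229). The log2 difference of SPRY1 under shMYC2 against Resistant was -2.97 after quantile normalization and -2.23 with a pseudocount of 10, beside -4.72, and that of ETV4 was -0.34 after total-count scaling, beside -0.2. The order of group means was kept for 9 genes after quantile normalization and for 8 after total-count scaling; DUSP6 (both) and SPRY4 (total count) exchanged the overlapping Parental and shMYC1 groups. The few reads of SPRY1 under shMYC2 limit every comparison with that group. No paired analysis was possible because the columns of the table number the libraries from 1 to 15 over all groups. The sample titles give replicates 1 to 3 in each group, but no source used here ties a column to a title's replicate number.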
